A study of Homo sapiens with 6 samples.

Results

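The SOX family of transcription factors was examined through 9 of its genes, SOX2, SOX3, SOX4, SOX9, SOX11, SOX12, SOX13, SOX17 and SOX21. They were taken by name, each from the row of the gene table whose Ensembl ID carries that symbol, and are 9 of 40396 genes in the table and 9 of 19 that are named SOX with a number. All 9 averaged 0.5 FPKM or more across the libraries and were tested, as were 16371 genes in all. FPKM, the unit of the table, is the number of fragments of a gene divided by its length and by the size of the library, so levels of different genes can be set side by side. The RNA came from H1, an established human embryonic stem cell line and the only line used, after 3 days of definitive endoderm (DE) differentiation. All cultures received 50 ng/ml activin A, a ligand that induces endoderm, and for the first 24 h also 2.5 µM CHIR99021, an activator of Wnt signaling. In the SAR group 0.5 µM saracatinib (SAR), known as an inhibitor of Src family kinases, was present for all 3 days. The control group was differentiated without SAR. At this SAR concentration the authors found no effective inhibition of Src phosphorylation, and less phosphorylation of another tyrosine kinase, focal adhesion kinase. There were 3 libraries in each group, with 16681280 to 24419937 reads assigned to genes in each, and the labels do not say whether each came from a separate culture, so p-values measure the spread between these libraries, which may be technical.

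SOX proteins bind the minor groove of DNA through a shared HMG box and bend it, and they mostly act together with a partner factor. SOX17 (group F) is required to form endoderm and is a standard marker of DE cells. SOX2 and SOX3 (group B1) maintain pluripotent and neural progenitor cells, and SOX21 (group B2) is known as a repressor that counteracts them. SOX4, SOX11 and SOX12 (group C) act in many embryonic progenitors, SOX9 (group E) in cartilage, gonad and pancreatic progenitors, and SOX13 (group D) belongs to a group without an activation domain of its own.

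In the GENCODE 29 annotation of GRCh38, SOX2 is on chromosome 3 from 181711924 to 181714436, SOX3 on chromosome X from 140502985 to 140505116, SOX4 on chromosome 6 from 21592768 to 21598619 and SOX9 on chromosome 17 from 72121020 to 72126420. SOX11 is on chromosome 2 from 5692667 to 5701385, SOX12 on chromosome 20 from 325595 to 330224, SOX13 on chromosome 1 from 204073115 to 204127743 and SOX21 on chromosome 13 from 94709622 to 94712399. SOX2, SOX3, SOX4, SOX11, SOX12 and SOX21 each consist of 1 exon. Other genes share few of their exon bases, at most 2.87% for SOX4 on the opposite strand and 0.849% for SOX11 on the same strand.

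SOX21, the member that differed most between the groups, begins next to a noncoding RNA on the opposite strand, SOX21-AS1, and the gap between their starts is 316 bases in GENCODE 29. Promoter sequences of RefSeq on GRCh38.p14 were matched for 6 of the 9 genes, and those of SOX21, SOX2 and SOX12 are shown because SOX21 changed most and because of the 6 only SOX2 and SOX12 held the TCF/LEF, forkhead or octamer letters searched. Each is the 200 bases that end 51 bases before the RefSeq start of the gene, at chr13:94712596-94712795 on the minus strand, chr3:181711675-181711874 on the plus strand and chr20:325302-325501 on the plus strand. Capitals mark the letters found. SOX21-AS1 begins at 94712716 in GENCODE 29, only 171 bases from the RefSeq start of SOX21. The upstream part of the SOX21 window, with the marked ATTGG, thus lies within SOX21-AS1 as annotated.
SOX21: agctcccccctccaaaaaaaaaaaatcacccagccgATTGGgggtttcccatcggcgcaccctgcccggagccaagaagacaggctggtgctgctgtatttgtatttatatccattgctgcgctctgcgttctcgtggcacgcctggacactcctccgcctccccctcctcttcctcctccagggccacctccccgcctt
SOX2: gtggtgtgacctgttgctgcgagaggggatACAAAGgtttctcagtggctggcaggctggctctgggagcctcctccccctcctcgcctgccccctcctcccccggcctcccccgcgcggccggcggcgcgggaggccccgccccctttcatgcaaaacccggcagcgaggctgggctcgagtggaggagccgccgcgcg
SOX12: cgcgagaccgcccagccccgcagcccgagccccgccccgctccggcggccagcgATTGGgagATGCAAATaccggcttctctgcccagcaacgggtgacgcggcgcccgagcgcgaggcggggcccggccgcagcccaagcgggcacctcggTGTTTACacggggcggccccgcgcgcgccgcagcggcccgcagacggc

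The letters were searched on both strands in windows of the same place for 34943 promoters. The SOX core ACAAT was in none of the 6 windows, and in 21.2% of all promoters. ACAAAG, the core bound by TCF and LEF factors, was in the SOX2 window and in 11.3% of all promoters. TGTTTAC, the core bound by forkhead factors, was in the SOX12 window, and in 2.34% of all promoters. The octamer ATGCAAAT, bound by POU factors, was also in the SOX12 window, and in 1.29% of all. CCAAT boxes, read as ATTGG on the strands printed, were in the windows of SOX3, SOX4, SOX12 and SOX21 and in 27.4% of all promoters. CCAAT and the octamer were added after the sequences had been seen, and no factor binding was measured here.

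SOX4 had the highest level of the 9 genes in both groups, and the order below it changed at SOX21. In control the mean levels ran from SOX4 (107 FPKM) through SOX17 (31.6), SOX2 (22.1), SOX12 (9.14), SOX11 (8.82), SOX13 (4.79), SOX3 (2.37) and SOX9 (1.71) to SOX21 (0.775). The ranges of neighbours in this order overlapped for SOX12 and SOX11 and for SOX3 and SOX9. With SAR the order was SOX4 (87.9 FPKM), SOX17 (67.5), SOX2 (39.8), SOX12 (13.2), SOX11 (12.6), SOX21 (11.7), SOX13 (8.46), SOX9 (3.95) and SOX3 (3.24). There the ranges overlapped for SOX4 and SOX17 and for each pair of neighbours from SOX12 to SOX13. SOX21 thus moved from the last place to the sixth, and SOX9 and SOX3 changed places. The bulk RNA does not separate a change in the number of cells that express a gene from a change in the RNA of each cell.

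**Figure D1:**
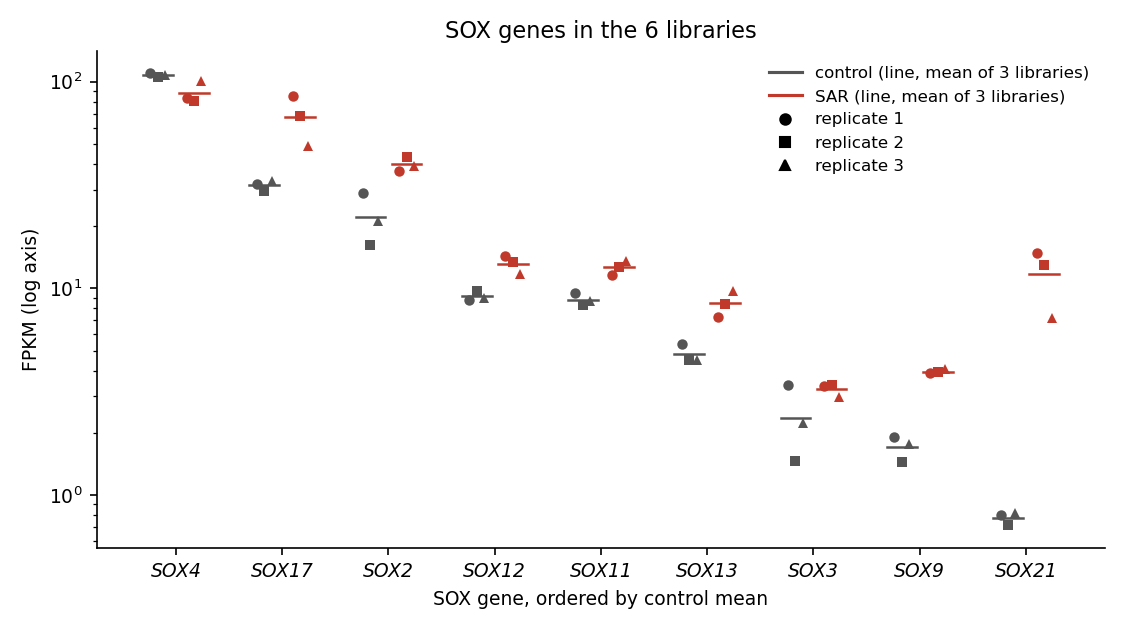
FPKM of the 9 SOX genes (log axis) in each library, with control in grey, SAR in red, marker shapes for replicates 1 to 3 and lines at the group means. SOX21 shows the widest gap between groups (0.775 against 11.7 FPKM), SOX3 overlaps, and SOX4 is the member with all SAR libraries below all control libraries.

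Of the 9 genes, 7 rose with SAR at an adjusted p-value under 0.05 (limma on log2(FPKM + 0.1), Benjamini-Hochberg over all 16371 tested genes), 1 fell (SOX4) and 1 did not pass (SOX3). All 9 averaged above 0.5 FPKM in both groups. Among all tested genes 23.7% rose and 9.55% fell by this rule. When a log2 fold change beyond 1 in either direction was also required, SOX21, SOX9 and SOX17 were higher and 0 of the 9 were lower, against 3.41% and 1.58% of all tested genes. All SAR libraries lay above all control libraries for 7 members and below them for 1, where 35.5% and 15.2% of the tested genes did. The median log2 fold change was 0.80 over the 9 genes and 0.12 over all tested genes. With median-ratio rescaling of the libraries, which moved the median of all genes to 0.00, the median of the 9 was 0.68. Then 7 members rose and 1 fell by the adjusted p-value, against 13.8% and 15.5% of all genes, and 2 and 0 passed both thresholds, against 2.43% and 2.22%.

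**Figure D2:**
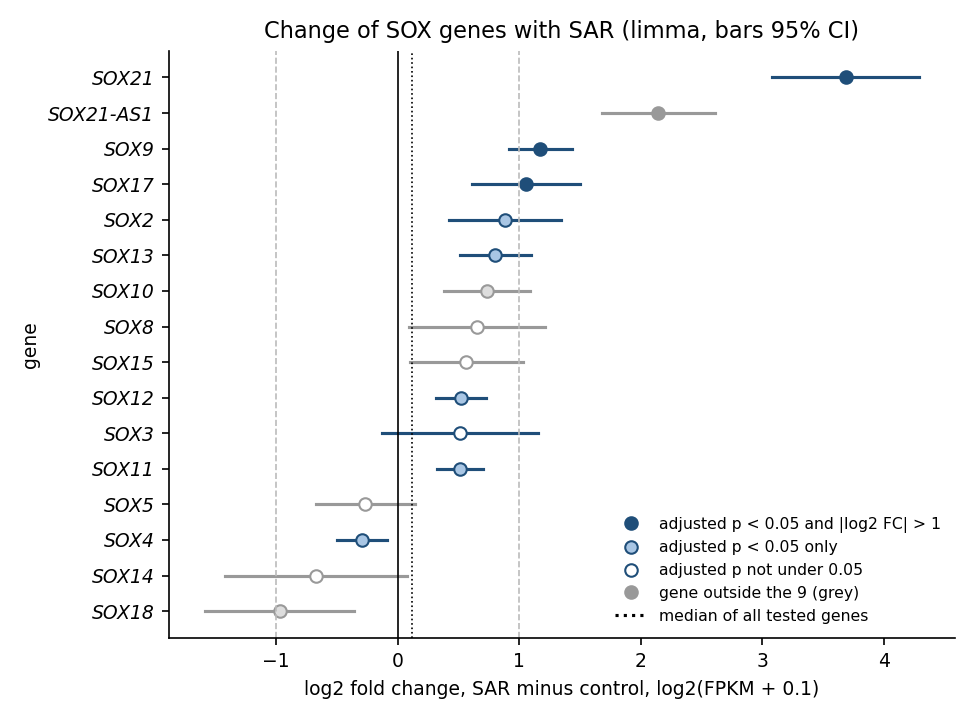
Log2 fold change (SAR minus control, on log2(FPKM + 0.1)) with 95% confidence intervals for the 9 SOX genes in blue and for the other tested SOX genes and SOX21-AS1 in grey. Filled points pass both thresholds, pale points pass the adjusted p-value only and open points pass neither, the dashed lines mark -1 and 1, and the dotted line marks the median of all tested genes at 0.12. SOX21 lies at 3.69, and the interval of SOX3 runs from -0.13 to 1.16.

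SOX17, the endodermal member, on chromosome 8, rose with SAR and varied more among the SAR libraries than among the control libraries. Its level was 32.1, 29.6 and 33.1 FPKM in control replicates 1, 2 and 3 and 85.3, 68.5 and 48.7 FPKM in SAR replicates 1, 2 and 3. The lowest SAR library was above the highest control library, and SAR replicate 1 was the farthest from control. The means were 31.6 ± 1.84 and 67.5 ± 18.3 FPKM (SD, n = 3), a ratio of 2.14, on 1468 to 1694 reads per control library and 2103 to 3340 per SAR library. The log2 fold change was 1.06 ± 0.187 (SE; adjusted p = 0.00724, limma). The call at a log2 fold change above 1 was lost after median-ratio rescaling (0.93) and without SAR replicate 1 (0.87), while the adjusted p-value stayed under 0.05 in all 13 alternatives, where it lay between 0.000444 and 0.0288.

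SOX2, which pairs with POU5F1 in pluripotent cells, was also higher with SAR. The control libraries had 28.9, 16.1 and 21.2 FPKM in replicates 1, 2 and 3, and the SAR libraries 37.0, 43.2 and 39.1 FPKM. The groups did not overlap. Control replicate 1 was the highest control library. The means were 22.1 ± 6.42 and 39.8 ± 3.18 FPKM (SD, n = 3), and the log2 fold change was 0.88 (95% interval 0.42 to 1.35, adjusted p = 0.0153 from limma). It was 1.10 without control replicate 1 and 0.68 without control replicate 2, and the adjusted p-value rose to 0.0514 without control replicate 3 and to 0.0528 without SAR replicate 2. POU5F1 showed the same order within the control group, at 220.2, 138 and 183 FPKM in replicates 1, 2 and 3, and lay between 214 and 222 FPKM with SAR (log2 fold change 0.31, adjusted p = 0.167 from limma). The part of this order in the SOX2 result was not tested. NANOG, the third core pluripotency factor, fell from 14.7 ± 1.71 to 5.89 ± 0.604 FPKM (log2 fold change -1.30, adjusted p = 0.000672 from limma), so that SOX2 and NANOG differed in direction in the same libraries.

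SOX3, the close relative of SOX2, did not pass the test. It had 3.42, 1.45 and 2.24 FPKM in control replicates 1, 2 and 3 and 3.36, 3.40 and 2.97 FPKM in the SAR replicates, on 74 to 156 reads per library. Control replicate 1 was above all SAR libraries. Its log2 fold change of 0.52 had a 95% interval from -0.13 to 1.16 (adjusted p = 0.179 from limma), which holds 0 as well as the value of SOX2. Without control replicate 1 it was 0.81 with an adjusted p-value of 0.0263 (limma), and without control replicate 2 it was 0.22 (adjusted p = 0.415). SOX1, the remaining gene of group B1, was listed at 0 in all control libraries and in SAR replicate 1, and at 0.0777 and 0.167 FPKM in SAR replicates 2 and 3, on 3 and 7 reads.

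SOX21 showed the largest change of the 9 genes. It stood at 0.796, 0.714 and 0.815 FPKM in control replicates 1, 2 and 3 and at 14.9, 12.997 and 7.16 FPKM in SAR replicates 1, 2 and 3. Even the lowest SAR library was far above every control library, and within the SAR group the order of the replicates was that of SOX17. The ratio of the means was 15.1, and the log2 fold change was 3.69 ± 0.255 (SE; adjusted p = 0.000395, limma), with values from 2.78, with a pseudocount of 1, to 4.002, without SAR replicate 3. The control value rests on 45 to 51 reads per library and the SAR value on 385 to 726. SOX21-AS1, which averaged under 0.5 FPKM in control and passed the filter through its SAR libraries, rose as well, from 0.329, 0.295 and 0.328 FPKM in control replicates 1, 2 and 3 to 2.09, 1.81 and 1.40 FPKM in the SAR replicates. Its log2 fold change was 2.15 (adjusted p = 0.000919 from limma), and its SAR libraries followed the order of SOX21. The 2 genes share no exon bases in GENCODE 29, but the strand setting of the counting is not stated. The other gene of group B2, SOX14, was at 0.666 ± 0.165 FPKM in control and 0.386 ± 0.140 FPKM with SAR and did not pass, its SAR mean being under the filter (log2 fold change -0.67, 95% interval -1.42 to 0.07, adjusted p = 0.14 from limma).

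SOX4 was the only member lower with SAR, and the change was small. Its control libraries stood close together at 109.7, 105.2 and 107.3 FPKM, and its SAR libraries had 82.9, 80.7 and 100.2 FPKM in replicates 1, 2 and 3. SAR replicate 3 lay just below the control libraries and the other two SAR replicates well below them. The log2 fold change was -0.29 (95% interval -0.50 to -0.09, adjusted p = 0.0397 from limma), on 6660 to 12503 reads per library. It was -0.42 after median-ratio rescaling, and the adjusted p-value went above 0.05 in 6 of 13 alternatives, to 0.122 at most, without SAR replicate 2.

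SOX11 and SOX12, the other genes of group C, were higher with SAR. SOX11 had 9.48, 8.34 and 8.66 FPKM in control replicates 1, 2 and 3 and 11.6, 12.7 and 13.6 FPKM in the SAR replicates. SOX12 had 8.80, 9.67 and 8.94 FPKM in control and 14.4, 13.5 and 11.7 FPKM with SAR. In both genes the groups were apart, and the SAR replicates stood in opposite orders, with replicate 3 highest for SOX11 and lowest for SOX12. The log2 fold changes were 0.51 ± 0.0802 (SE; adjusted p = 0.00484, limma) for SOX11 and 0.52 ± 0.0871 (SE; adjusted p = 0.00604, limma) for SOX12. Both kept an adjusted p-value under 0.05 in all 13 alternatives. The 95% intervals of SOX11 (0.32 to 0.70) and SOX12 (0.31 to 0.73) lie wholly above 0 and that of SOX4 wholly below it. The difference between them was not tested.

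SOX9 rose 2.31-fold by the ratio of the means, from a low level. It had 1.90, 1.45 and 1.77 FPKM in control replicates 1, 2 and 3 and 3.87, 3.92 and 4.05 FPKM in the SAR replicates. The groups were apart and the SAR libraries stood close together. The log2 fold change was 1.17 ± 0.11 (SE; adjusted p = 0.00097, limma), on 131 to 164 reads per control library and 254 to 293 per SAR library. With a pseudocount of 1 it was 0.87 and below the fold change threshold. SOX8 and SOX10, the other genes of group E, were at 1.10 ± 0.365 and 0.967 ± 0.0421 FPKM in control and at 1.73 ± 0.237 and 1.69 ± 0.298 FPKM with SAR. SOX10 rose (log2 fold change 0.74, adjusted p = 0.0119 from limma) and SOX8 did not pass (0.65, adjusted p = 0.0721), although it did without control replicate 1 (0.87, adjusted p = 0.0274).

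SOX13 rose from 5.38, 4.48 and 4.50 FPKM in control replicates 1, 2 and 3 to 7.27, 8.44 and 9.68 FPKM in the SAR replicates. The groups were apart and SAR replicate 3 was highest, as for SOX11. The log2 fold change was 0.80 ± 0.122 (SE; adjusted p = 0.00435, limma). SOX5 of the same group D was at 0.910 ± 0.133 FPKM in control and 0.737 ± 0.0517 FPKM with SAR and did not pass (log2 fold change -0.27, adjusted p = 0.263 from limma). SOX6, the third gene of group D, had a mean under 0.5 FPKM and was not tested, with 0.0863, 0.112 and 0.0712 FPKM in control and 0.0328, 0.0352 and 0.0352 FPKM with SAR.

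In group F, SOX17 and SOX18 moved apart. SOX18, an endothelial factor, had 1.62, 1.08 and 0.939 FPKM in control replicates 1, 2 and 3 and 0.419, 0.570 and 0.701 FPKM in the SAR replicates. Its log2 fold change was -0.97 (adjusted p = 0.0288, limma), on 13 to 24 reads per SAR library. SOX18 passed both thresholds in 5 of its 12 alternatives that tested it and missed the adjusted p-value in 6, where it reached 0.0746. SOX7, which marks extraembryonic endoderm, was not tested, with 0.185, 0.242 and 0.181 FPKM in control and 0.410, 0.532 and 0.423 FPKM with SAR. It had 11 to 29 reads per library and shares 39.4% of its exon bases with PINX1 on the same strand.

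Set against the other genes within each library, SOX17 gained on SOX4 but not clearly on SOX2 or SOX3. The ratio of SOX17 to SOX4 in FPKM was 0.293, 0.281 and 0.309 in control replicates 1, 2 and 3 and 1.03, 0.848 and 0.486 in the SAR replicates. All SAR ratios were above all control ratios, and in SAR replicate 1 the levels of the pair were nearly equal. For SOX2 the ratio was 1.11, 1.83 and 1.56 in control and 2.31, 1.58 and 1.25 with SAR. The groups overlapped, and the change in the log2 ratio of SOX17 to SOX2, 0.17 in all 6 libraries, was -0.0275 without control replicate 1 and -0.0641 without SAR replicate 1. The ratio of SOX17 to SOX3 also overlapped, at 9.41 to 20.3 in control and 16.4 to 25.4 with SAR. For SOX11 it was 3.39 to 3.83 in control and 7.34, 5.40 and 3.59 with SAR, so that SAR replicate 3 lay within the control range. No p-value is given for these ratios, which combine members chosen with earlier results known.

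**Figure D3:**
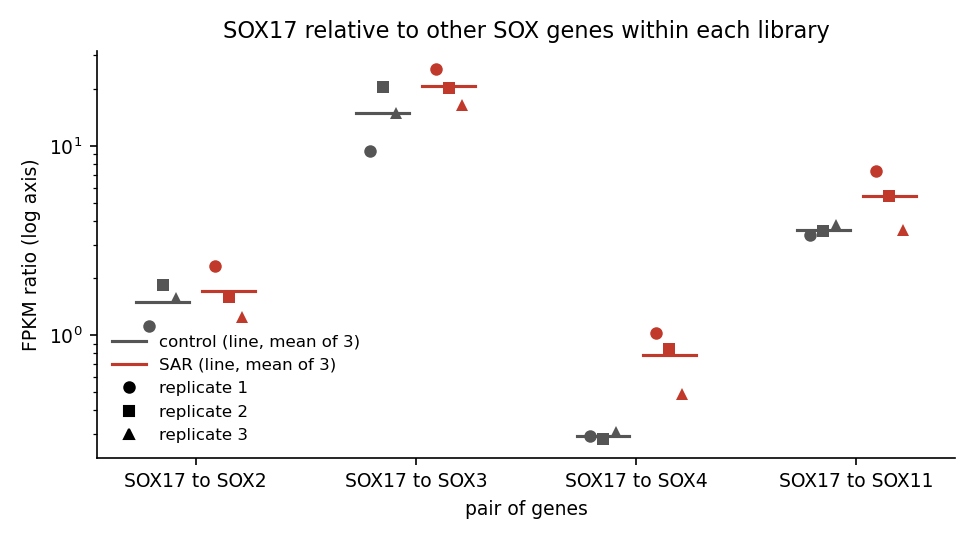
Ratio of the FPKM of SOX17 to that of SOX2, SOX3, SOX4 and SOX11 within each library (log axis), with control in grey, SAR in red, marker shapes for replicates and lines at the group means. Only for SOX4 do all SAR libraries (0.486 to 1.03) lie above all control libraries (0.281 to 0.309).

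The summed level of the 9 genes rose from between 177 and 200.5 FPKM in control to between 237 and 261 FPKM with SAR, and its make-up shifted. SOX4 made up 54.7%, 59.4% and 56.9% of the sum in control replicates 1, 2 and 3 and 31.8%, 32.6% and 42.2% in the SAR replicates. SOX17 made up 16.0% to 17.6% in control and 32.7%, 27.7% and 20.6% with SAR. SOX21 went from 0.397% to 0.432% in control to between 3.02% and 5.71% with SAR. The shares of SOX2, SOX3, SOX11 and SOX12 overlapped between the groups. In SAR replicate 3 the share of SOX4 was the highest and those of SOX17 and SOX21 were the lowest of the SAR group.

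**Figure D4:**
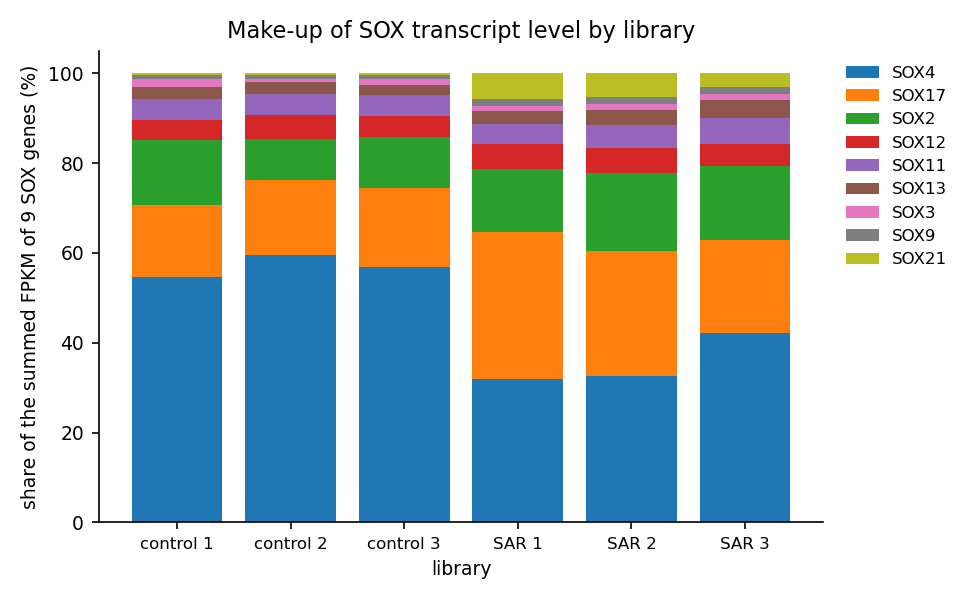
Share of each gene in the summed FPKM of the 9 SOX genes, 1 bar per library. The SOX4 part (bottom) is 54.7% or more in every control library and 42.2% or less in every SAR library, and the SOX17 part above it is wider with SAR.

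Gene lists for the cells in which these factors are known to act were compiled by hand with earlier results of the same data in view, and serve as context. In the DE list, in which all 18 genes were tested, 3 were higher and 5 were lower by both thresholds, and 6 and 8 by the adjusted p-value alone. The median was -0.21, below the 0.12 of all tested genes and below the SOX17 value of 1.06. FOXA2, which marks DE together with SOX17, rose from 23.6 ± 1.38 to 64.0 ± 3.66 FPKM (log2 fold change 1.44, adjusted p = 0.000107 from limma). FOXA1 (2.54) and HHEX (1.03), an early foregut gene, were the other higher members. HHEX fell short of the fold change threshold with median-ratio rescaling (0.90), without control replicate 1 (0.95) and without SAR replicate 1 (0.87). GSC (-1.48), EOMES (-1.36), CER1 (-1.28), MIXL1 (-1.35) and GATA4 (-1.05) were lower, and of these GSC, EOMES and MIXL1 are known as mesendoderm genes of the primitive streak. GATA6, which drives endoderm formation, fell from 47.1 ± 3.32 to 32.0 ± 7.02 FPKM (log2 fold change -0.58, adjusted p = 0.0274 from limma). HHEX shared the order of SOX17 among the SAR libraries, at 67.1, 55.0 and 42.8 FPKM in replicates 1, 2 and 3. GATA6 (39.3, 31.4 and 25.3 FPKM) and GATA4 (7.89, 6.88 and 5.26 FPKM), which were lower with SAR, had the same order.

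Of the pluripotency list 17 of 18 genes were tested, and FGF4 was higher and NANOG lower by both thresholds. By the adjusted p-value alone 4 were higher and 1 was lower, and after median-ratio rescaling 2 were higher and 2 were lower. FGF4, which has an enhancer bound by SOX2 and POU5F1, rose from 1.88 ± 0.0590 to 4.98 ± 0.451 FPKM (log2 fold change 1.36, adjusted p = 0.000335 from limma). The list's median was 0.20, and its summed level was 1231 to 1402 FPKM in control and 1472 to 1499 FPKM with SAR. The neural ectoderm list, the setting in which SOX2, SOX3 and SOX21 are best known, had 7 of 20 genes above the filter. By both thresholds FABP7 (1.12) and SIX3 (1.51) were higher and 0 were lower. By the adjusted p-value alone 4 were higher and 1 was lower. The lower gene, ZIC2, fell from 73.0 ± 3.32 to 55.7 ± 1.58 FPKM (log2 fold change -0.39, adjusted p = 0.00342 from limma). With a pseudocount of 1 neither FABP7 nor SIX3 was called (0.96 and 0.67). SIX3 passed the filter only through its SAR libraries (0.343 FPKM in control), as did OTX1, and SIX3 was not tested at a minimum of 1 FPKM. The other 12 genes in the table averaged under 0.5 FPKM. Among them PAX6, a defining neural marker, was at 0.0890 ± 0.0240 FPKM in control and 0.00280 ± 0.000144 FPKM with SAR, while EMX2 was at 0.0536 ± 0.0562 and 0.249 ± 0.0575 FPKM. HES5, a Notch target, was listed at 0.0690 FPKM in control replicate 1 and at 0 in the other 5 libraries. The summed level of the neural list was 136.7 to 147.6 FPKM in control and 135.2 to 149.6 FPKM with SAR. Most of this sum came from ZIC2 and NES, so it says little about the other genes of the list. NES averaged 63.4 FPKM in control and 74.0 FPKM with SAR and did not pass the adjusted p-value. The part of the neural list in the SOX2 and SOX21 results was not tested.

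Among 6 tested genes of the neural crest list of 12, which includes SOX10, FOXD3 was higher (1.41, adjusted p = 0.0415 from limma) and 0 were lower by both thresholds. By the adjusted p-value alone 2 were higher and 1 was lower. The lower gene, ETS1, fell from 10.4 ± 0.129 to 6.71 ± 0.424 FPKM (log2 fold change -0.62, adjusted p = 0.00128 from limma). FOXD3 passed the filter only through its SAR libraries (0.274 FPKM in control), and it was called in 3 of the 10 alternatives that tested it. The mesoderm list had 7 of 17 genes above the filter, with TBXT higher and MIXL1 lower by both thresholds and a median of 0.09. By the adjusted p-value alone 2 of its genes were higher and 2 were lower. The extraembryonic endoderm list, the setting of SOX7, had 10 of 16 genes above the filter, none past both thresholds, and 5 higher and 3 lower by the adjusted p-value alone, with a median of 0.23. Its secreted plasma proteins differed in level. AFP, TTR, APOB, FGB and TF had means under 0.5 FPKM. APOE was at 359 ± 2.92 FPKM in control and 427 ± 37.2 FPKM with SAR. APOA2 was at 17.6 ± 0.761 and 30.7 ± 7.23 FPKM, and APOA1 at 19.8 ± 2.82 and 20.3 ± 6.72 FPKM. No listed marker of these lists was at 0 in all 6 libraries.

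In the node, notochord and floor plate list, a setting in which SOX9 is also expressed in embryos, 7 of 13 genes were tested. FOXA2 and TBXT (1.69), which were above 0.5 FPKM in both groups, were higher. FOXJ1 (4.40), OLIG3 (4.71), CHRD (2.60) and NOTO (3.65) were also higher, but averaged 0.0485 to 0.463 FPKM in control and passed the filter only through their SAR libraries, so a count or median over the list is not informative. Of the untested genes, SHH was at 0.0953 ± 0.0645 FPKM in control and 0.800 ± 0.0493 FPKM with SAR, with the groups apart, and NOG was at 0.104 ± 0.0959 and 0.131 ± 0.0948 FPKM, with the groups overlapping. Several of these genes were already known to be higher in these libraries when the list was written. The summed level of the list was 33.3 to 41.4 FPKM in control and 108.6 to 118 FPKM with SAR. This sum has the same limit as a count or median, and FOXA2 alone averaged 23.6 FPKM in control and 64.0 FPKM with SAR. The part of the list in the SOX results was not tested. FOXJ1, a regulator of motile cilia, shared the order of SOX21 in the SAR group, from 14.6 FPKM in replicate 1 down to 8.28 FPKM in replicate 3.

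Known targets of SOX9 in cartilage moved both ways. Of 9 tested genes in the list of 15, COL2A1 rose from 3.11 ± 0.332 to 8.35 ± 0.886 FPKM (log2 fold change 1.40, adjusted p = 0.000518 from limma), and MATN3 fell from 33.9 ± 3.70 to 13.6 ± 1.503 FPKM (-1.31, adjusted p = 0.000656). COL9A1 was higher (0.82) and COL9A2 lower (-0.91) by the adjusted p-value alone, and the median of the list was 0.08. Among 11 tested readout genes of Wnt signaling through TCF and LEF factors, TBXT, SP5 (1.52), LEF1 (2.03) and DKK1 (1.79) were higher and NOTUM (-1.75) was lower. The other 6 did not pass the adjusted p-value. Among them AXIN2 was at 5.30 ± 0.109 FPKM in control and 5.24 ± 0.116 FPKM with SAR (log2 fold change -0.02, adjusted p = 0.834 from limma). LEF1 passed the filter only through its SAR libraries and NOTUM only through its control libraries. DKK1, a secreted Wnt antagonist, shared the order of SOX17 and SOX21 in the SAR group, at 45.8, 35.7 and 14.6 FPKM in replicates 1, 2 and 3. This order was not particular to raised genes, since MIXL1, which was lower, also had it (21.8, 18.3 and 13.3 FPKM). The summed FPKM of all genes ran the same way, at 293045, 285620 and 276313 in SAR replicates 1, 2 and 3. SOX11 and SOX13 had the reverse order.

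**Figure D5:**
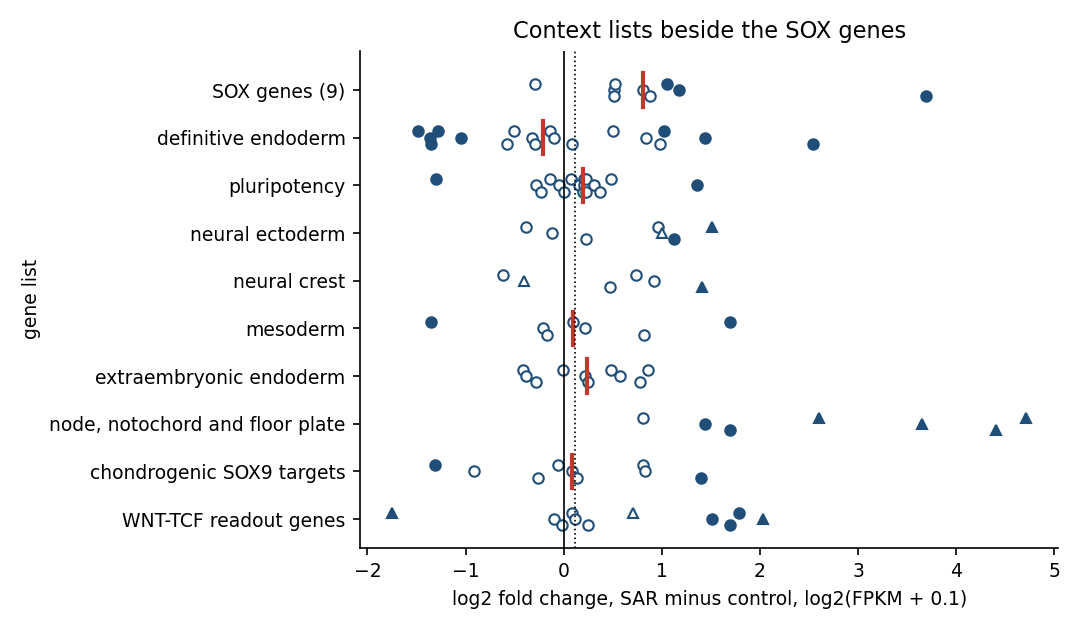
Log2 fold change of each tested gene (SAR minus control, on log2(FPKM + 0.1)) in the 9 SOX genes and in the context lists, with filled points past both thresholds, triangles for genes under 0.5 FPKM on average in 1 group, a dotted line at the median of all tested genes and red bars at the medians of lists without triangles. The SOX genes have a median of 0.80 and no triangles, the DE list has a median of -0.21, and 4 of the 7 points of the node, notochord and floor plate list are triangles.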

How the data were processed

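RNA-seq libraries of H1 cells on day 3 of DE differentiation were analysed, 3 for control and 3 for 0.5 µM SAR. The authors deposited FPKM for 40396 Ensembl genes, 1 column per library. The submitters' processing notes name HISAT2, featureCounts and GRCh38.p13. The annotation release and strand setting are not given in the sources used here. Groups came from the sample titles and the 30235 symbols from a table of gene IDs.

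Because FPKM are not counts, limma 3.58.1 in R 4.3.3 (lmFit, eBayes with trend) was fitted on log2(FPKM + 0.1) to 16371 genes averaging 0.5 FPKM or more, without a block. The added 0.1 understates the change of low genes. Of the tested genes, 732 averaged under 0.5 FPKM in control and 328 with SAR. The two-sided p-values were adjusted with Benjamini-Hochberg, and the thresholds were an adjusted p-value under 0.05 and, where stated, an absolute log2 fold change above 1. Summaries used Python 3.11.15. The fit was also run on simulated data with independent noise and 200 changed genes. Fewer genes changed there than were called here, so that run does not measure the error rate of these results.

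Depth was recovered from the table. With GENCODE 29 exon lengths, the library total was taken that turned most low FPKM into whole reads, and then for each gene a length that gave whole reads (within 0.02) in all libraries, which was found for 99.9% of genes. Totals were 18877964 to 24419937 reads in control and 16681280 to 18389543 with SAR. Chi-square over its degrees of freedom was 3.61 to 11.9 between libraries of a group, more than read sampling alone gives. All libraries were therefore kept as separate libraries. This does not show whether they came from separate cultures. Control replicate 1 listed 33169 genes above 0 and the others 29506 to 30109. Intervals are those of the fit.

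The members, the 11 gene lists (142 further genes) and the tests were chosen with earlier results of these data known. The rule names all 9 members, other tested SOX genes, the called members of each list (at most 5, by smallest adjusted p-value), GATA6, FOXA2, POU5F1 and NANOG, and the 5 genes most correlated with SOX17, SOX2 and SOX4. Named outside it, after their values were seen, were HHEX, GATA4, NOTO, COL9A1, COL9A2, PAX6, HES5, EMX2, OTX1, AFP, TTR, SHH, NOG and the SOX genes and noncoding RNAs under 0.5 FPKM. ZIC2, NES, ETS1, AXIN2, APOA1, APOA2, APOB, APOE, FGB and TF were also named outside the rule, after their values were seen. Of the SOX-associated noncoding RNAs, SOX21-AS1 alone was tested. Sequences are from RefSeq.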

Additional observations from a re-analysis of the deposited data

How the results depend on the processing

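The fit was repeated with pseudocounts of 1 and 0.01, no filter, a filter at 1 FPKM, median-ratio rescaling, a replicate block, each library left out, and, added after seeing the data, voom on the recovered reads. SOX genes higher with SAR numbered 3 by both thresholds and between 2 and 4 without each library in turn. Without a minimum fold change there were 7 higher and 1 lower, against 23.7% and 9.55% of all tested genes. The counts of called genes in the context lists went from 25 to 51. Over all tested genes they went from 559 higher and 259 lower to 3885 and 1563. The log2 fold change of SOX17 was 0.93 after median-ratio rescaling, and 0.87 to 1.27 without each library in turn, with the lowest value without SAR replicate 1. The change in the log2 ratio of SOX17 to SOX2 was 0.17 and reversed to -0.0275 without control replicate 1 and to -0.0641 without SAR replicate 1, and lay between -0.0641 and 0.378 over the libraries left out. The causes were not tested. The log2 fold changes of the 9 members kept their sign in all 13 alternatives of the fit.

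The replicate numbers gave no sign of pairing between libraries. The correlations of the deviations of same-numbered libraries were 0.0729, 0.00286 and 0.0247 over 16371 genes. These values cannot exclude pairing, since there were only 3 libraries per group and differently numbered libraries were not compared. With the replicate block, 3 SOX genes were higher and 0 lower, the log2 fold change of SOX17 was 1.06 (adjusted p = 0.0118 from limma), and 24 context genes were called. SOX15 passed the adjusted p-value with the block (0.0345) and SOX18 did not (0.0633). Over all tested genes the block gave 546 higher and 274 lower genes, against 559 and 259. With a pseudocount of 1 there were 169 and 141. After median-ratio rescaling there were 397 and 363, and with no filter 630 and 318.

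Depth limits the low genes most, SOX1, SOX6, SOX7 and SOX30, which were tested only with no filter and did not pass there (adjusted p = 0.091 for SOX7, the lowest of the 4, from limma).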

Other observations

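Noncoding RNAs named after SOX genes other than SOX21-AS1 were low. SOX2-OT, in which SOX2 lies, was at 0.0289, 0.0155 and 0.0234 FPKM in control replicates 1, 2 and 3 and at 0.0550, 0.0727 and 0.0963 FPKM in the SAR replicates, on 12 to 56 reads per library. SOX9-AS1 had 1 to 3 reads per control library and 7 to 9 per SAR library. SOX1-OT and SOX5-AS1 were listed at 0 in all control libraries.

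SOX15, a gene of group G that is expressed in pluripotent cells, was at 3.02 ± 0.787 FPKM in control and 4.44 ± 0.608 FPKM with SAR (log2 fold change 0.56, adjusted p = 0.0651 from limma). The adjusted p-value of SOX15 was 0.0337 without control replicate 1 and 0.038 by voom. Its control libraries stood in the order of SOX2, SOX3 and POU5F1, at 3.74, 2.18 and 3.15 FPKM in replicates 1, 2 and 3. SOX30, a gene of group H known from the testis, was at 0.249, 0.106 and 0.121 FPKM in control and 0.103, 0.0677 and 0.140 FPKM with SAR.

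Over the 6 libraries, the genes with a symbol and a mean of at least 5 FPKM whose log2(FPKM + 0.1) was most like that of SOX17 were TRAPPC2L (Pearson's r 0.9995), ZFAND6 (0.999), TDP2 (0.998), UPF3A (0.997) and KIAA2013 (0.996). For SOX2 they were RBPMS (0.995), VPS16 (0.995), TSPAN4 (0.995), APELA (0.994) and POLR2D (0.993), and for SOX4 they were PRPF38B (0.999), GOLGA5 (0.988), CEP135 (0.988), TUBB2A (0.986) and DR1 (0.984). Each value rests on 6 libraries in 2 groups, and 6933 genes were compared, so these are descriptions without a test. The sizes of the changes differed widely among them. TRAPPC2L, at the top for SOX17, changed by 0.37 on the log2 scale, and APELA, an endogenous ligand of the apelin receptor known from pluripotent cells, changed by 1.85.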
